A study of Homo sapiens with 12 samples.

Results

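FOXO1, FOXO3, FOXP1, KLF2, KLF6, IL7R, CCNG2, BTG1, TOB1 and RBL2 are genes of the forkhead and Krüppel-like programmes and of resting lymphocytes. They were chosen by symbol, as every probe set whose annotation gives 1 of these 10 symbols alone, which took in 36 probe sets of the 54613 tested. Expression was read in OCI-Ly7, an established line of human diffuse large B-cell lymphoma, after 24 hours with 1 μM PLS-123, 10 μM ibrutinib, 1 μM ibrutinib or vehicle, with 3 samples in each of the 4 groups and 1 array per sample. Both compounds are covalent inhibitors of Btk, the kinase that carries the signal of the B-cell receptor, and all cells were of 1 line. Nothing in the labels tells whether samples A, B and C of a group were grown apart, so a p value measures the spread between these samples, which may be technical.

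FOXO proteins are forkhead transcription factors that act in the nucleus until AKT or SGK kinases, which work downstream of PI3K, phosphorylate them and they are moved to the cytoplasm. In lymphocytes FOXO1 turns on IL7R and KLF2, and genes that halt the cell cycle are among the targets of FOXO1 and FOXO3 in many cell types. CCNG2 and RBL2 belong to these halting genes, as do the growth inhibitors BTG1 and TOB1, and low B-cell receptor signalling is one of the states in which FOXO proteins stay in the nucleus.

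Promoter sequence is shown for the 4 genes whose brightest probe set was higher with both PLS-123 and 10 μM ibrutinib, since these 4 moved together. The RefSeq windows, on GRCh38.p14, run from 250 bases before to 50 bases after an annotated start, and all 10 genes have at least 1, with 20 windows in all. The letters GTAAACA, the DNA element that FOXO proteins prefer, were searched on both strands, as were TAAACA, the shorter forkhead core that lies within them, and the MEF2 consensus. GTAAACA occurs in 3.42% of 35116 windows of this length, TAAACA in 12.3%, the MEF2 consensus in 2.99% and CCACCC in 34.3%. Capitals mark GTAAACA in BTG1 and in 1 of the 6 windows of FOXP1, TAAACA in IL7R and the MEF2 consensus in KLF2, each as it reads on the strand of the gene (TGTTTAC and TGTTTA are the reverse complements). The motif to mark was picked gene by gene, and no printed window has CCACCC.
IL7R, chr5:35856641-35856940, plus strand: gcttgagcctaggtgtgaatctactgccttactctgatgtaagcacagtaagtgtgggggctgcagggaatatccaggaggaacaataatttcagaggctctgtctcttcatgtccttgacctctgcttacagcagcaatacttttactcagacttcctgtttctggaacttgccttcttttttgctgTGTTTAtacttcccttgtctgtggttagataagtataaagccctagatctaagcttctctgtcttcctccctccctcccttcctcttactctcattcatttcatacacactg
BTG1, chr12:92145797-92146096, minus strand: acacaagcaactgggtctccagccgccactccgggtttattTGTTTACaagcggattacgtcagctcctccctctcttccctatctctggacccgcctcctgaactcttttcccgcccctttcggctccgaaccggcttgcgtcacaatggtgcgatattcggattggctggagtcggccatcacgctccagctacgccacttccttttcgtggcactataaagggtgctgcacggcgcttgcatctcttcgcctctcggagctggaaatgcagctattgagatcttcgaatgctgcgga
FOXP1, chr3:71245028-71245327, minus strand: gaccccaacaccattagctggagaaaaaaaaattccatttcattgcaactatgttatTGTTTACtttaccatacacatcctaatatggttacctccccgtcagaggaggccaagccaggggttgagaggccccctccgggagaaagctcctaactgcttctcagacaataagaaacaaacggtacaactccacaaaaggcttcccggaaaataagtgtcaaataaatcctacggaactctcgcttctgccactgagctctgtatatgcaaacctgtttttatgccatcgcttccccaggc
KLF2, chr19:16324576-16324875, plus strand: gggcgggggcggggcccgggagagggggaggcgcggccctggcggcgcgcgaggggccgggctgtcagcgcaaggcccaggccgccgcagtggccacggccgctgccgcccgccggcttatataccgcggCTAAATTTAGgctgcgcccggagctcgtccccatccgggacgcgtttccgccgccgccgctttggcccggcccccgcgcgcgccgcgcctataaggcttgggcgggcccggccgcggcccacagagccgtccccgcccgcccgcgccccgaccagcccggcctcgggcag
The match begins at position -62 from the start site in IL7R, -209 in BTG1, -193 in FOXP1 and -120 in KLF2. Of the 10 genes, 6 have TAAACA in at least 1 window, 2 of them as GTAAACA. Only KLF2 has the MEF2 consensus, and 3 genes have CCACCC. The shares above are of windows, and by window TAAACA is in 8 of the 20, GTAAACA in 2, the MEF2 consensus in 1 and CCACCC in 4. The share of all genes with a match in any window was not counted. These are matches of letters in short windows and say nothing of whether a protein was bound there.

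The deposited values were intensities normalized by RMA, given here as log2, and 1 limma model with a mean for each group took in the 12 arrays. A gene or probe set is called changed at a Benjamini-Hochberg adjusted p under 0.05 over all 54613 probe sets, and all p values are two-sided. A gene is described by its brightest probe set, that with the highest mean over the 12 arrays, and then by its other probe sets, each made of short probes to some stretch of the transcript. Dim is used for a probe set whose mean lay under a log2 intensity of 3.87, the median over all.

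The B-cell markers measured, MS4A1, CD79A, CD79B and PAX5, were all above this median, and their summed linear intensity was 8533 to 9172 with PLS-123, 9103 to 9285 with 10 μM ibrutinib, 10440 to 11020 with 1 μM ibrutinib and 10570 to 11030 with vehicle. Markers of T and NK cells were dim for 5 of 7, with summed intensities of 87.1 to 106.3 with PLS-123 and 86.3 to 103.6 with vehicle, and those of myeloid cells for 4 of 6. Stromal and epithelial markers were dim for 3 of 6. The log2 difference between the 3' and 5' control probe sets of ACTB, which grows as RNA is shortened, was 2.93 ± 0.20 (SD, n = 3 arrays) with PLS-123, 2.74 ± 0.08 at 10 μM ibrutinib, 2.67 ± 0.18 at 1 μM and 2.64 ± 0.04 with vehicle. The same difference for GAPDH was 0.438 to 0.466 with PLS-123, 0.384 to 0.400 at 10 μM ibrutinib, 0.241 to 0.306 at 1 μM and 0.268 to 0.346 with vehicle, so all arrays of PLS-123 and 10 μM ibrutinib lay above the other 6, and its part in the results was not tested. In RNA from whole cultures a change in every cell and a shift in which cells are present cannot be told apart.

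PLS-123 was compared with vehicle to find how the 10 genes differed after this compound. IL7R, FOXP1, BTG1 and KLF2 rose, FOXO1 fell, and FOXO3, KLF6, CCNG2, TOB1 and RBL2 were not called by their brightest probe sets. So 4 of 10 genes were higher and 1 was lower, where 6.36% of all probe sets were called higher and 10.4% lower, and among 12040 genes whose brightest probe set was not dim, 11.2% were higher and 19.8% lower. The median log2 change of the 10 genes was 0.23, against -0.03 over all probe sets. The 10 were chosen with earlier results of these data known, so their counts in each comparison are a description. For 7 of the 10 genes the PLS-123 arrays did not overlap the vehicle arrays, which held for 32.9% of all probe sets. A fold of 1.5 with an unadjusted p under 0.05 was passed by IL7R, FOXP1 and KLF2 with PLS-123, 3 of 10 against 5.37% of all probe sets, and by IL7R, FOXP1 and BTG1 with 10 μM ibrutinib, 3 of 10 against 3.99%.

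With 10 μM ibrutinib the same 4 genes were higher than with vehicle, KLF6 was called as well, and no gene was lower. These 5 of 10 compare with 5.39% of all probe sets called higher, 4.62% called lower, and 10.4% higher and 9.03% lower among the 12040 genes not dim. Of the 10 genes, 7 had arrays at this dose that did not overlap vehicle, as did 27.6% of all probe sets. The median log2 change of the 10 genes was 0.28, against -0.01 over all probe sets. Both comparisons use the same 3 vehicle arrays, so they are not independent. The call of KLF2 or KLF6 at this dose was lost when 1 of several arrays was left out, with 3 genes called without vehicle sample B or without ibrutinib sample C.

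With 1 μM ibrutinib 0 of the 10 genes and 0 of the 36 probe sets were called against vehicle, as was 0% of all probe sets by limma. None of the 10 genes had an unadjusted p under 0.05, against 5.39% of all probe sets, and 3 of the 36 probe sets did (KLF6 208961_s_at, IL7R 205798_at and RBL2 212332_at, all lower). The methods' t-test also called 0 of the 10. The 95% intervals of the log2 change ran from -0.31 to 0.04 for IL7R, from -0.02 to 0.33 for FOXP1, from -0.23 to 0.14 for BTG1 and from -0.39 to 0.09 for KLF2.

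**Figure D1:**
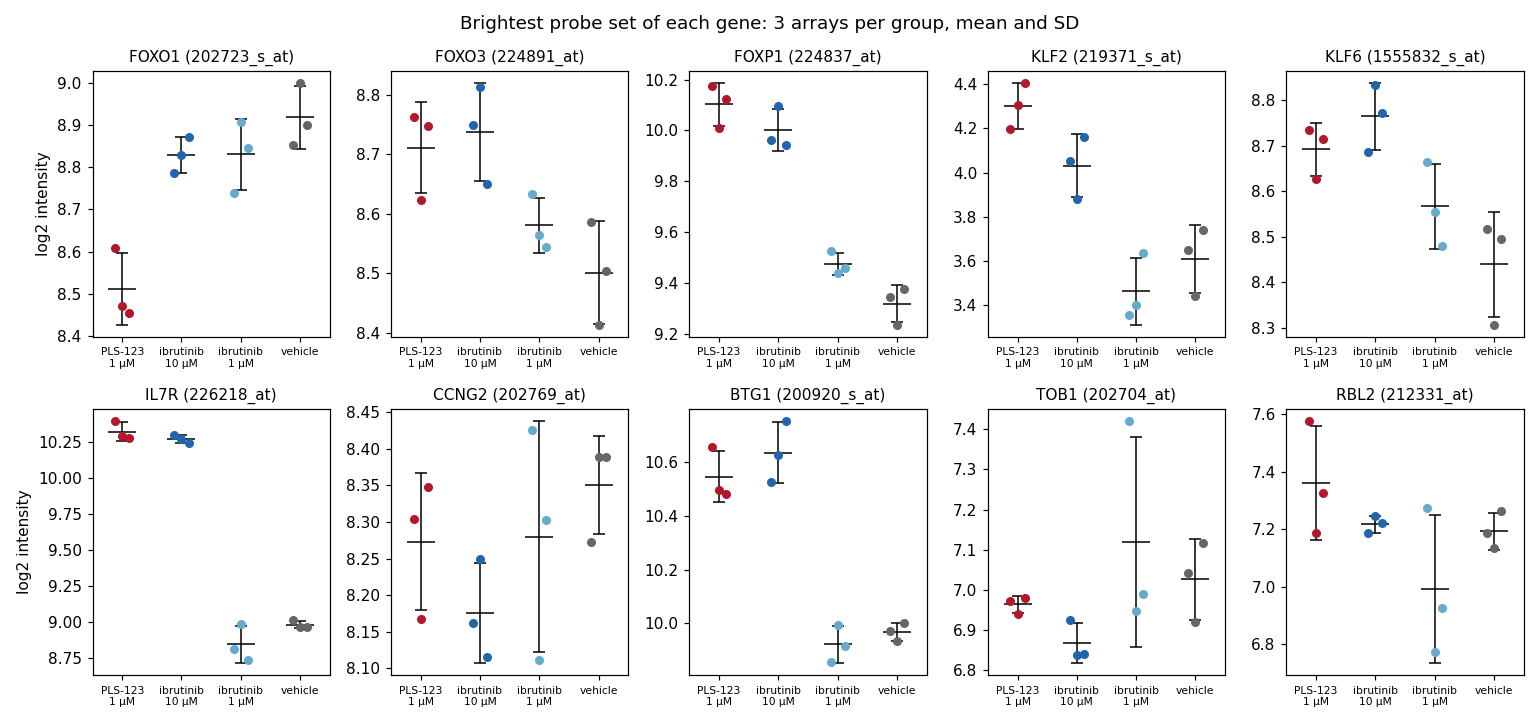
log2 intensity of the brightest probe set of each of the 10 genes, with 1 point per array, and the mean and SD of the 3 arrays of each group as a bar. Each panel has its own vertical range. IL7R lies between 10.24 and 10.39 on the arrays of PLS-123 and 10 μM ibrutinib and between 8.73 and 9.01 on those of 1 μM ibrutinib and vehicle.

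IL7R, the alpha chain of the receptor for IL-7, a survival factor of developing lymphocytes, had the largest change of the 10 in each of these comparisons but that of 1 μM ibrutinib. Its brightest probe set, 226218_at, read 10.39, 10.29 and 10.27 with PLS-123, 10.29, 10.27 and 10.24 at 10 μM ibrutinib, 8.81, 8.99 and 8.73 at 1 μM ibrutinib, and 9.01, 8.97 and 8.97 with vehicle. The arrays thus fell into a high pair and a low pair of groups that did not overlap, as the GAPDH difference did. The level was 2.53-fold higher with PLS-123 than with vehicle (log2 change 1.34 ± 0.08 SE, adjusted p = 1.0e-07) and 2.44-fold higher with 10 μM ibrutinib (1.29 ± 0.08, adjusted p = 1.67e-07). Among 12040 genes that were not dim, this was the 116th largest rise with PLS-123. The second probe set, 205798_at, rose by 1.00 (log2) with PLS-123 and by 1.30 with 10 μM ibrutinib.

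Of 12031 genes searched, the 3 whose log2 changes in the 3 treatments lay closest to those of IL7R were AGO4 (distance 0.114), which encodes an Argonaute protein of the small RNA pathway, PTPN3 (0.123), a tyrosine phosphatase, and PIM1 (0.154), a serine kinase. The distance is Euclidean over the 3 log2 changes against the shared vehicle arrays and is a description. PIM1 rose by 1.30 with PLS-123 and by 1.38 with 10 μM ibrutinib, with -0.02 at 1 μM ibrutinib.

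FOXP1 encodes a forkhead factor that acts mainly as a repressor and is needed early in B-cell development. Probe set 224837_at read 10.17, 10.01 and 10.12 with PLS-123, 9.96, 10.10 and 9.94 at 10 μM ibrutinib, 9.52, 9.44 and 9.46 at 1 μM ibrutinib, and 9.34, 9.24 and 9.37 with vehicle. All 6 arrays of PLS-123 and 10 μM ibrutinib were above the other 6. FOXP1 was 1.72-fold higher with PLS-123 (log2 change 0.78 ± 0.08, adjusted p = 1.68e-05) and 1.60-fold higher with 10 μM ibrutinib (0.68 ± 0.08, adjusted p = 7.05e-05).

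The array reads FOXP1 with 8 probe sets, more than any other of the 10 genes, and 6 of them were called higher with PLS-123 and the same 6 with 10 μM ibrutinib. Their log2 changes ran from 0.40 to 0.78 with PLS-123 and from 0.57 to 0.72 with 10 μM ibrutinib. The other 2, 223937_at and 223936_s_at, changed by 0.31 and 0.17 with PLS-123 (adjusted p = 0.0989 and 0.346). Of the 6 called, 235444_at and 1558996_at lost the PLS-123 call with the ACTB difference as a covariate (adjusted p = 0.149 and 0.0896). The methods' t-test did not call them either (0.0542 and 0.0918). For 235444_at the call was also lost in some fits without 1 array, with adjusted p up to 0.0715. The positions of the probe sets in the FOXP1 transcripts, which start at several sites, were not analysed here. The window printed above belongs to 1 of those sites.

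BTG1, an antiproliferative protein that links mRNAs to the CCR4-NOT deadenylase, read 10.66, 10.50 and 10.48 by 200920_s_at with PLS-123, 10.53, 10.63 and 10.75 at 10 μM ibrutinib, 9.86, 9.99 and 9.91 at 1 μM ibrutinib, and 9.97, 9.93 and 10.00 with vehicle. Here too the 6 arrays of PLS-123 and 10 μM ibrutinib were above the other 6. The rise was 1.49-fold with PLS-123 (log2 change 0.58 ± 0.09, adjusted p = 0.000354) and 1.59-fold with 10 μM ibrutinib (0.67 ± 0.09, adjusted p = 0.000127). All 3 probe sets of BTG1 were called higher in both comparisons, with log2 changes of 0.58 to 0.83 for PLS-123. The faintest, 1559975_at, had a mean of 3.78 with vehicle, under the median of all probe sets. Its PLS-123 call was lost with the ACTB difference as a covariate (adjusted p = 0.0836) and with the methods' t-test (0.116). With 10 μM ibrutinib its call was lost with limma on only the 2 groups (0.0568) and the methods' t-test (0.224). That call was kept in 9 of 12 fits without 1 array.

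KLF2 encodes the Krüppel-like factor that keeps T cells quiescent and directs lymphocyte trafficking. Both of its probe sets were dim. The brighter, 219371_s_at, read 4.20, 4.30 and 4.41 with PLS-123, 4.05, 3.88 and 4.16 at 10 μM ibrutinib, 3.35, 3.40 and 3.63 at 1 μM ibrutinib, and 3.65, 3.44 and 3.74 with vehicle. No array of PLS-123 or 10 μM ibrutinib overlapped one of the other 2 groups, and vehicle stood below the median of all probe sets on each array. No detection call was used here, so it is not known whether KLF2 was above background in vehicle or at 1 μM ibrutinib, and its folds may be lower bounds. KLF2 read 1.62-fold higher with PLS-123 (log2 change 0.69 ± 0.11, adjusted p = 0.000653), and this call held in each fit without 1 array. With 10 μM ibrutinib it was 1.34-fold higher (0.42 ± 0.11, adjusted p = 0.0261), with adjusted p between 0.0226 and 0.120 in the fits without 1 array. The second probe set, 226646_at, changed by 0.47 with PLS-123 (adjusted p = 0.0408) and by 0.29 with 10 μM ibrutinib (adjusted p = 0.284). Its PLS-123 call was kept in 2 of 7 alternatives, with an adjusted p of 0.274 by the methods' t-test. The call was also lost without vehicle sample B (adjusted p = 0.161), among other fits without 1 array.

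KLF6, a zinc-finger factor that can raise the cell cycle inhibitor CDKN1A, moved less. Probe set 1555832_s_at read 8.73, 8.63 and 8.71 with PLS-123, 8.69, 8.83 and 8.77 at 10 μM ibrutinib, 8.66, 8.56 and 8.48 at 1 μM ibrutinib, and 8.52, 8.31 and 8.50 with vehicle. Arrays of both PLS-123 and 10 μM ibrutinib lay above vehicle, and those of PLS-123 overlapped 1 μM ibrutinib. The log2 change was 0.25 ± 0.09 with PLS-123 (adjusted p = 0.0659) and 0.32 ± 0.09 with 10 μM ibrutinib (adjusted p = 0.0297), and the last call was kept in 8 of 12 fits without 1 array. Probe set 224606_at was called higher in both, by 0.27 and 0.28, while the other 3 probe sets were not called. Its PLS-123 call was lost with the ACTB difference as a covariate (adjusted p = 0.190) and with arrays centred by the normalization controls (0.0943). The call with 10 μM ibrutinib was lost with such centring (0.0766) and with limma on only the 2 groups (0.0526). Both were also lost in some fits without 1 array, with adjusted p up to 0.0730 and 0.110.

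FOXO1 is the main FOXO factor of B cells, where it takes part in the dark zone programme of the germinal centre. By 202723_s_at it read 8.61, 8.47 and 8.46 with PLS-123, 8.79, 8.83 and 8.87 at 10 μM ibrutinib, 8.74, 8.91 and 8.85 at 1 μM ibrutinib, and 8.85, 9.0 and 8.90 with vehicle. Only the PLS-123 arrays stood apart, below all 9 others. FOXO1 was 1.33-fold lower with PLS-123 than with vehicle (log2 change -0.41 ± 0.08, adjusted p = 0.00357), and the log2 change with 10 μM ibrutinib was -0.09 ± 0.08 (adjusted p = 0.609).

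This fall was seen by 1 of the 3 probe sets of FOXO1. Probe set 202724_s_at read 8.04, 7.71 and 8.08 with PLS-123 and 7.92, 7.95 and 8.04 with vehicle, with a log2 change of -0.02 (95% interval -0.24 to 0.19), and the dim 228484_s_at changed by 0.19 (adjusted p = 0.307). When the ACTB difference entered the model as a covariate, the change of 202723_s_at was -0.32 with an adjusted p of 0.106. All 12 fits without 1 array kept the call.

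FOXO3, the FOXO factor tied to stress responses and cell death, was not called with any treatment. Probe set 224891_at read 8.76, 8.62 and 8.75 with PLS-123, 8.75, 8.81 and 8.65 at 10 μM ibrutinib, 8.63, 8.56 and 8.54 at 1 μM ibrutinib, and 8.59, 8.41 and 8.50 with vehicle. The log2 change was 0.21 ± 0.08 with PLS-123 (adjusted p = 0.105) and 0.24 ± 0.08 with 10 μM ibrutinib (adjusted p = 0.0974), with the arrays of both groups above those of vehicle. Probe set 204131_s_at changed by -0.20 with PLS-123 (adjusted p = 0.217) and by 0.16 with 10 μM ibrutinib. Probe sets 224889_at and 231548_at lay above vehicle in the mean with both treatments and were not called. Their mean log2 levels were 6.32 and 5.08 with PLS-123, 6.40 and 5.02 at 10 μM ibrutinib, and 6.10 and 4.89 with vehicle. A further 3 probe sets name FOXO3 together with its close copy FOXO3B and were left out, and probes for FOXO3 may also read that copy.

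**Figure D2:**
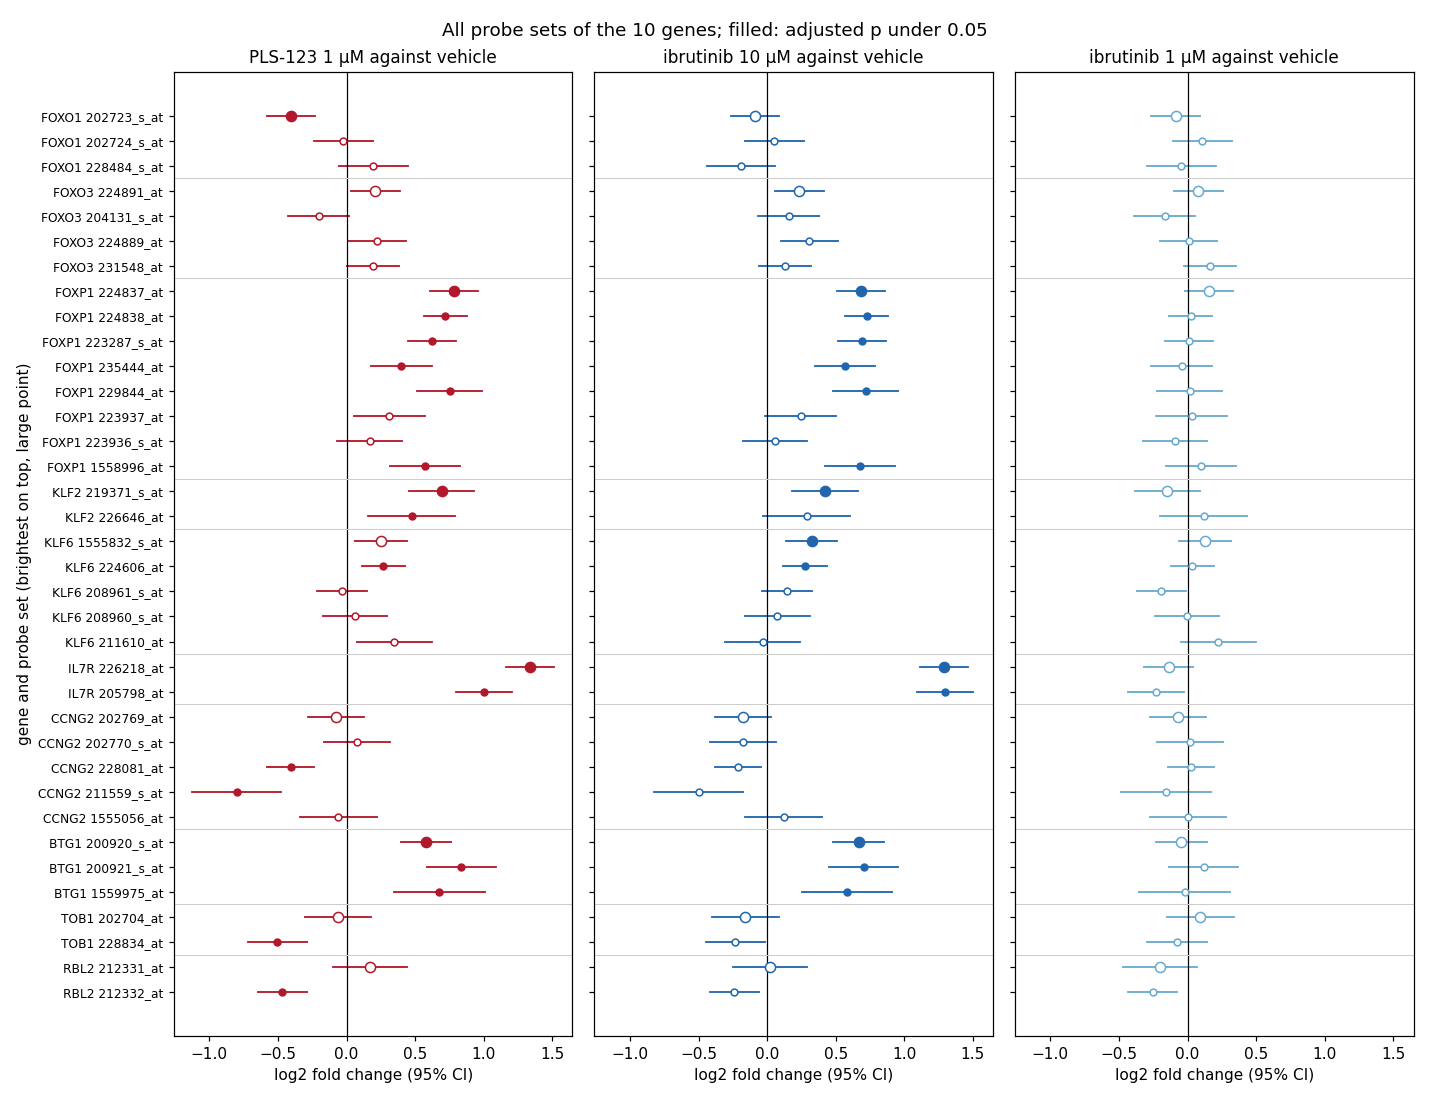
log2 fold change against vehicle, with 95% confidence interval, of all 36 probe sets of the 10 genes for PLS-123, 10 μM ibrutinib and 1 μM ibrutinib. Filled points were called at an adjusted p under 0.05, and the largest point of each gene is its brightest probe set. With PLS-123 14 probe sets were called higher and 5 lower, with 10 μM ibrutinib 14 higher and 0 lower, and with 1 μM ibrutinib 0.

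Over all probe sets of the 10 genes, PLS-123 had 14 higher and 5 lower of 36, and 10 μM ibrutinib 14 higher and 0 lower. The 5 lower ones belonged to FOXO1, CCNG2, TOB1 and RBL2, and apart from FOXO1 none was the brightest probe set of its gene. For CCNG2, TOB1 and RBL2 the choice of probe set therefore decided whether a fall was read.

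RBL2 encodes p130, the pocket protein that holds the DREAM complex on cell cycle genes in resting cells. The brightest probe set, 212331_at, read 7.58, 7.19 and 7.33 with PLS-123 and 7.19, 7.13 and 7.26 with vehicle, with overlapping arrays and a log2 change of 0.17 ± 0.12 (adjusted p = 0.416). By 212332_at RBL2 read 5.58, 5.57 and 5.46 with PLS-123, 5.75, 5.70 and 5.84 at 10 μM ibrutinib, 5.79, 5.72 and 5.75 at 1 μM ibrutinib, and 5.88, 6.10 and 6.03 with vehicle. By this probe set all treated arrays lay below vehicle, and the fall with PLS-123 was called (-0.47 ± 0.08, adjusted p = 0.0014). The changes of the 2 probe sets with PLS-123 differed by 0.64 on the log2 scale.

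TOB1, a relative of BTG1 that also works through CCR4-NOT, read 6.97, 6.94 and 6.98 by 202704_at with PLS-123 and 7.04, 6.92 and 7.12 with vehicle (log2 change -0.06 ± 0.11, adjusted p = 0.777). Probe set 228834_at read 6.04, 5.77 and 5.94 with PLS-123, 6.13, 6.20 and 6.24 at 10 μM ibrutinib, 6.45, 6.28 and 6.31 at 1 μM ibrutinib, and 6.34, 6.61 and 6.31 with vehicle. PLS-123 was lowest here on all 3 arrays, with a called fall of 0.50 ± 0.10 on the log2 scale (adjusted p = 0.00326). The change with 10 μM ibrutinib was -0.23 (adjusted p = 0.197).

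CCNG2, cyclin G2, an unusual cyclin that slows the cell cycle and a FOXO target, has 5 probe sets. The brightest, 202769_at, read 8.30, 8.17 and 8.35 with PLS-123, 8.16, 8.25 and 8.12 at 10 μM ibrutinib, 8.43, 8.11 and 8.30 at 1 μM ibrutinib, and 8.27, 8.39 and 8.39 with vehicle, and was not called in any comparison. By 211559_s_at CCNG2 read 4.13, 4.20 and 4.17 with PLS-123, 4.28, 4.65 and 4.47 at 10 μM ibrutinib, 4.41, 5.06 and 4.95 at 1 μM ibrutinib, and 4.83, 5.15 and 4.91 with vehicle. It fell by 0.80 ± 0.15 with PLS-123 (adjusted p = 0.00229), and 228081_at fell by 0.41 ± 0.08 (adjusted p = 0.00251). Probe sets 202770_s_at and 1555056_at were not called. Their mean log2 levels were 6.29 and 3.80 with PLS-123, and 6.22 and 3.86 with vehicle. Once the ACTB difference was added to the model, the adjusted p of 211559_s_at was 0.111, while 228081_at, 228834_at of TOB1 and 212332_at of RBL2 kept their calls. The part of RNA quality in the differences between probe sets of 1 gene was otherwise not tested.

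**Figure D3:**
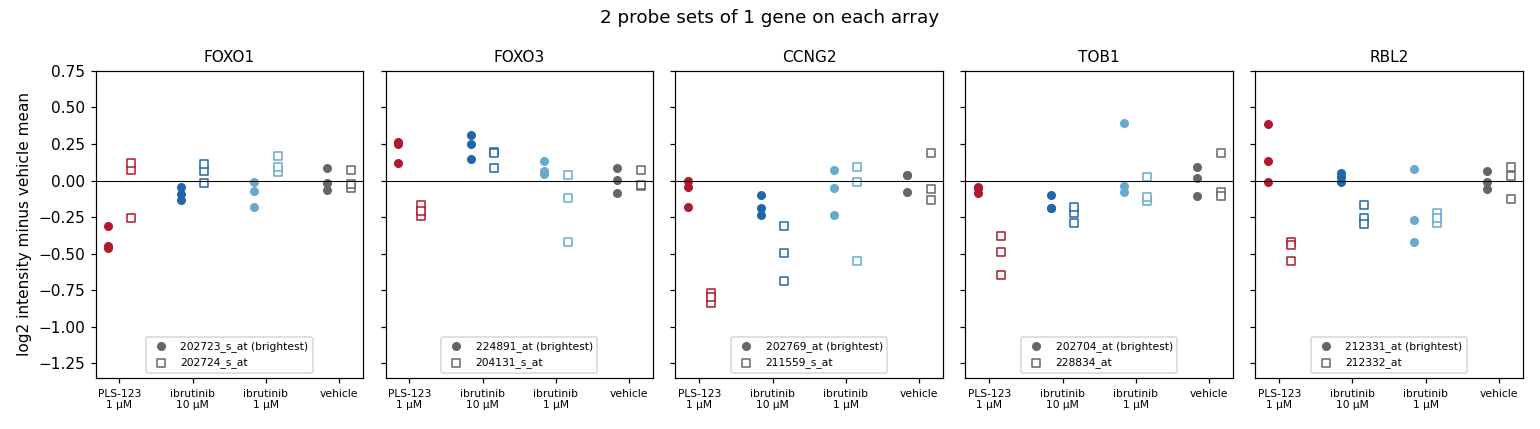
log2 intensity of 2 probe sets of FOXO1, FOXO3, CCNG2, TOB1 and RBL2 on each array, as the difference from the vehicle mean of the same probe set. Filled circles are the brightest probe set, with 3 arrays per group. Open squares are the one whose change with PLS-123 parted most from it, among probe sets that were not dim. With PLS-123 the circles lie below the squares for FOXO1 on all 3 arrays and above them for the other 4 genes.

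PLS-123 and ibrutinib were compared at the matched dose of 1 μM, the pair that sets the compounds against each other. IL7R, FOXP1, BTG1 and KLF2 were higher with PLS-123 and FOXO1 was lower, so 4 of 10 genes were called higher and 1 lower, where 4.58% of all probe sets were higher and 7.93% lower. For IL7R the fold between PLS-123 and 1 μM ibrutinib was 2.78 (log2 difference 1.47 ± 0.08, adjusted p = 5.23e-08) and that for KLF2, dim at 1 μM ibrutinib, was 1.79 (0.84 ± 0.11, adjusted p = 0.000169). FOXP1 and BTG1 were both 1.54-fold higher. FOXO1 was 1.25-fold lower (-0.32 ± 0.08, adjusted p = 0.0197), a call that was lost without any 1 of 4 arrays (samples B and C of both groups), with adjusted p up to 0.0823, and with the ACTB covariate (adjusted p = 0.238). It was also lost with the methods' t-test (adjusted p = 0.117), with limma on only the 2 groups (0.0742) and by the median over probe sets (-0.13, adjusted p = 0.484).

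For the 5 genes not called at the matched dose the intervals of the log2 difference, PLS-123 minus ibrutinib, were -0.05 to 0.31 for FOXO3, -0.06 to 0.31 for KLF6, -0.21 to 0.20 for CCNG2 and -0.40 to 0.09 for TOB1. RBL2 had 0.10 to 0.64 with an adjusted p of 0.0715, and this p fell to 0.00895 without sample A of 1 μM ibrutinib. Over all probe sets 12 of 36 were higher and 4 lower with PLS-123. A fold of 1.5 with an unadjusted p under 0.05 was passed by 4 of the 10 genes and by 3.99% of all probe sets.

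Between the doses of ibrutinib, IL7R, FOXP1, BTG1 and KLF2 were higher at 10 μM than at 1 μM, with 4 of 10 genes called higher and 0 lower, where 4.22% of all probe sets were higher and 3.39% lower. IL7R differed by 2.69-fold, BTG1 by 1.64-fold, KLF2, dim at 1 μM, by 1.48-fold and FOXP1 by 1.44-fold, so that 2 of 10 passed a fold of 1.5 with an unadjusted p under 0.05, against 3.21% of all probe sets. The comparison shares its arrays with those above, and it is the only one in which a compound was read at a pair of doses.

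PLS-123 at 1 μM and ibrutinib at 10 μM differ in both compound and dose, so these groups are given side by side. Mean log2 levels were 10.32 with PLS-123 and 10.27 with ibrutinib for IL7R, 10.10 and 10.00 for FOXP1, 10.55 and 10.64 for BTG1, 4.30 and 4.03 for KLF2, and 8.51 and 8.83 for FOXO1. None of the 10 genes was called by limma, where 0.183% of all probe sets were, while 2 of the 10 and 10 of the 36 probe sets had an unadjusted p under 0.05, against 15.3% of all. FOXO1 had the largest difference, -0.32 (95% interval -0.49 to -0.14, adjusted p = 0.117), and was called with an intensity trend in the variance prior (adjusted p = 0.0187).

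Genes around these 10 were read from lists of 129 genes by role, each by its brightest probe set, and the counts are to be read against the 11.2% higher and 19.8% lower with PLS-123, and 10.4% and 9.03% with 10 μM ibrutinib, among all genes not dim. Of the other FOXO target genes, 12 of 26 measured were higher and 1 was lower with PLS-123, and the counts were the same with 10 μM ibrutinib, with 0 called at 1 μM ibrutinib. The median log2 change of the list was 0.31 with PLS-123 and 0.33 with 10 μM ibrutinib. Of the 26, 8 were dim, while the shares are of genes not dim. All lists were chosen with earlier results of these data known, so their counts are a description. TNFSF10, the death ligand TRAIL, rose by 2.28 ± 0.12 (log2) with PLS-123 and by 1.74 with 10 μM ibrutinib. GADD45A, a growth arrest gene, rose by 1.74 and 1.54, and CCR7, the receptor that leads lymphocytes to lymph nodes, by 1.59 and 1.45, though it was dim. BCL6, the repressor that keeps germinal centre cells in their state and is turned on by FOXO factors in several cell types, fell by 1.45 with PLS-123 and by 1.33 with 10 μM ibrutinib, against the direction of the other called targets.

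Beside this, the germinal centre markers had summed intensities of 3642 to 3708 with PLS-123, 3361 to 3527 with 10 μM ibrutinib, 5015 to 5405 with 1 μM ibrutinib and 4865 to 5097 with vehicle. BCL6 is one of these 5 markers, and they did not move one way. With PLS-123 against vehicle MME, a surface peptidase, rose, with mean log2 levels of 10.82 and 9.13, while BCL6, MYBL1 and S1PR2 fell and LMO2, which was dim, was not called. Their part in the results for FOXO1 and its targets was not tested.

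**Figure D4:**
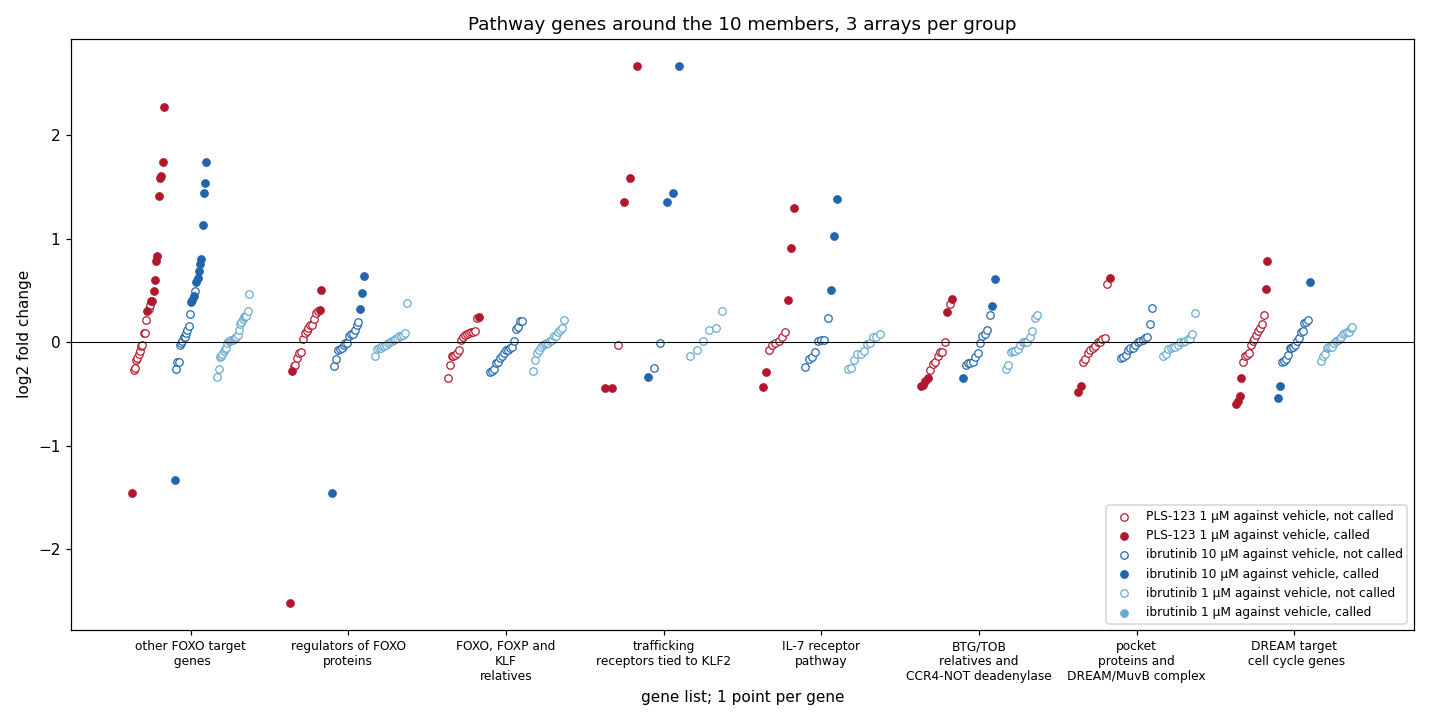
log2 fold change against vehicle of each measured gene of the 8 lists, with 1 point per gene, sorted by value within a list, for PLS-123, 10 μM ibrutinib and 1 μM ibrutinib from left to right. Filled points were called at an adjusted p under 0.05. In the list of other FOXO target genes 12 of 26 were higher for PLS-123, as many for 10 μM ibrutinib, and no gene of any list was called at 1 μM ibrutinib.

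Among 18 regulators of FOXO proteins, 2 were higher and 2 lower with PLS-123, and 3 were higher and 1 lower with 10 μM ibrutinib, with shares near or below those of all genes for PLS-123. SGK1, a kinase that phosphorylates FOXO proteins, fell by 2.52 ± 0.12 (log2) with PLS-123 and by 1.46 with 10 μM ibrutinib. USP7, a deubiquitinase that acts on FOXO proteins, rose by 0.50 and 0.64. PIK3CD, the PI3K subunit of leukocytes, rose by 0.31 and 0.48, and AKT2 fell by 0.27 with PLS-123 (adjusted p = 0.0243). The AKT2 call was lost with quantile normalization (adjusted p = 0.0861), the ACTB covariate (0.313) and in 5 of 12 fits without 1 array, where adjusted p reached 0.0856. That of PIK3CD with PLS-123 was lost with the methods' t-test (0.153), arrays centred by the controls (0.149), only the 2 groups (0.0701) and the replicate block (0.0577), and was kept in 4 of 12 fits without 1 array. Of 17 relatives of the FOXO, FOXP and KLF members, KLF13 alone was called, with a rise of 0.25 with PLS-123, and none was called with 10 μM ibrutinib. Of these 17, 7 were dim. The KLF13 call was lost with arrays centred by the controls (adjusted p = 0.156), the ACTB covariate (0.0890), only the 2 groups (0.0726) and the replicate block (0.0552), and was kept in 7 of 12 fits without 1 array.

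Of 6 trafficking receptors tied to KLF2, 3 rose and 2 fell with PLS-123, and 2 of the 6 were dim. CD69, an early activation antigen that holds lymphocytes in tissue, rose by 2.67 ± 0.18 with PLS-123 and by 2.67 with 10 μM ibrutinib, and S1PR4, a sphingosine phosphate receptor, by 1.36 and 1.35. CCR7 was the third. ITGB7, an integrin chain of gut homing cells, fell by 0.44 with PLS-123 and by 0.34 with 10 μM ibrutinib, and CXCR3, named here after its value was seen, fell by 0.44 with PLS-123.

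In the IL-7 receptor pathway 3 of 11 genes rose and 2 fell with PLS-123, and 3 rose and 0 fell with 10 μM ibrutinib. Of these 11 genes, 3 were dim. JAK1, the kinase bound to the IL-7 receptor alpha chain, rose by 0.91 ± 0.08 with PLS-123 and by 1.03 with 10 μM ibrutinib. STAT5B, the factor activated next, rose by 0.41 and 0.51, and PIM1, a STAT5 target, rose with values given above. BCL2, which IL-7 raises in lymphoid cells, fell by 0.43 with PLS-123 (adjusted p = 0.00575), as did IL2RG, the partner chain of the receptor, by 0.29, named here after its value was seen.

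Of 14 partners of BTG1 and TOB1, in the BTG/TOB family and the CCR4-NOT deadenylase, 2 were higher and 4 lower with PLS-123, shares near those of all genes. Of these 14, 1 was dim. CNOT6L, a catalytic subunit, rose by 0.42 ± 0.09, while the catalytic subunit CNOT7 fell by 0.34, the scaffold subunit CNOT3 by 0.42 and the family member BTG3 by 0.37.

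Around RBL2, 1 of 14 pocket proteins and members of the DREAM or MuvB complexes was higher and 2 were lower with PLS-123, and 0 were called with 10 μM ibrutinib. Of these 14, 1 was dim. RB1, the retinoblastoma protein, rose by 0.62 ± 0.19 (adjusted p = 0.0367), but by 0.25 with the ACTB covariate (adjusted p = 0.611), and the call was also lost with the methods' t-test (0.123) and without any 1 of 4 arrays (samples A and C of PLS-123, A and B of vehicle). TFDP2 and E2F5, both parts of E2F dimers, fell by 0.48 and 0.43. Among 18 cell cycle genes that DREAM represses, 2 were higher and 4 lower with PLS-123, close to the shares over all genes. The mitotic kinases AURKA and PLK1 fell by 0.57 and 0.59 and the proliferation marker MKI67 by 0.52, while the spindle checkpoint kinase BUB1 rose by 0.79. With the ACTB covariate the PLS-123 calls of CNOT6L, CNOT3, MKI67, BCL2, E2F5 and ITGB7 were lost too, with adjusted p between 0.0742 and 0.157, and by the methods' t-test those of CNOT6L, CNOT3, BCL2, STAT5B and ITGB7 were lost, with 0.0550 to 0.0733. ITGB7 kept its call with 10 μM ibrutinib in 5 of 12 fits without 1 array.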

How the data were processed

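Biotin-labelled cRNA of each of the 12 OCI-Ly7 samples was hybridized to its own Affymetrix U133 Plus 2.0 array. The authors normalized the arrays with RMA, whose version is not stated, and deposited intensity values on the linear scale, which ran from 2.09 to 15751. From the deposited intensity, log2 was taken with nothing added. Of 54675 probe sets, 62 controls were set aside. Genes were assigned by the platform annotation, in which 41091 tested probe sets carry 1 symbol.

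limma 3.58.1 (R 4.3.3) was fitted with lmFit and eBayes, with 1 mean per group and 8 residual degrees of freedom, and Benjamini-Hochberg adjustment covered the 54613 probe sets of each comparison. The script was tested on simulated data. The number of arrays limits the precision.

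The members and the lists were chosen with earlier results of these data known. Named genes are the 10 members, up to 4 called genes per list with the smallest adjusted p for PLS-123 against vehicle, and the 3 nearest genes of a member whose log2 change passed 1. Some other genes of the lists were not analysed here.

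Alternatives were the methods' t-test, a limma model of only the 2 groups, a variance prior with intensity trend, blocking on the sample letter, quantile normalization, arrays centred by the 100 normalization control probe sets, a fit without dim probe sets, testing each gene once, the median of each member's probe sets, a fold of 1.5 with an unadjusted p under 0.05, the ACTB covariate and leaving out each array. Their use on the FOXO target list and on other probe sets was added after seeing the data.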

Additional observations from a re-analysis of the deposited data

How the results depend on the processing

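No gene or probe set called as reported changed direction in any alternative run. The 5 genes called with PLS-123 against vehicle stayed at 5 in all 12 fits without 1 array, and 3 passed a fold of 1.5 with an unadjusted p under 0.05. The count was 7 with the intensity trend or quantile normalization, where FOXO3 and KLF6 were called higher as well, 6 without dim probe sets, with 1 probe set per gene or by the median, and 4 with the ACTB covariate. By the median KLF6 had -0.03 and was not called. With 10 μM ibrutinib against vehicle, 5 genes were called and 3 to 5 in the fits without 1 array, the lowest without vehicle sample B or ibrutinib sample C. This count was also 3 with limma restricted to the 2 groups, the methods' t-test, the median over probe sets, the ACTB covariate and the fold of 1.5, and 6 with the intensity trend, which added FOXO3. The calls lost were those of KLF2 and KLF6, whose adjusted p with the ACTB covariate was 0.0569 and 0.0613. Of the 4 genes called between 10 and 1 μM ibrutinib, 2 passed the fold of 1.5. Between PLS-123 and 10 μM ibrutinib, 0 genes were called and 1 (FOXO1) with the intensity trend or without dim probe sets, where fewer probe sets were tested. By the median over probe sets, FOXO1 was no longer called with PLS-123 against vehicle (log2 change -0.02, adjusted p = 0.914), and CCNG2 (-0.41, adjusted p = 0.00251) and TOB1 (-0.28, adjusted p = 0.0492) were, which follows from the probe sets that part. KLF2 has no value without dim probe sets. Of the other FOXO target genes, 13 were called with PLS-123 against vehicle and 9 to 14 in the alternatives, and 15 between PLS-123 and 1 μM ibrutinib, with 6 by the methods' t-test and 9 at the fold of 1.5. Rescaling the arrays moved the median of all probe sets by at most 0.064 on the log2 scale. The sample letters A, B and C were treated as names only, as the labels do not tell whether they mark a pairing. Arrays that share a letter had residual correlations between -0.209 and 0.152. With the replicate block the counts of member genes against vehicle were as without it. They were 5 for PLS-123, 5 for 10 μM ibrutinib and 0 for 1 μM ibrutinib.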

Other observations

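Transcripts that lie beside or opposite the members have probe sets of their own. BTG1-DT, the divergent transcript of BTG1, had a mean log2 level of 5.58 with PLS-123, 5.61 at 10 μM ibrutinib, 5.25 at 1 μM and 5.32 with vehicle, with a log2 change of 0.26 ± 0.16 for PLS-123 against vehicle (limma, adjusted p = 0.297). TOB1-AS1, antisense to TOB1, was dim and had 3.08 with PLS-123, 3.13 at 10 μM ibrutinib, 3.61 at 1 μM and 3.30 with vehicle. It was called lower for PLS-123 when set against 1 μM ibrutinib (log2 difference -0.53 ± 0.16, adjusted p = 0.0411) and not called against vehicle (-0.22, adjusted p = 0.390).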
